A study of Mus musculus with 60 samples.

Results

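Prevotellaceae is a family of anaerobic, mostly carbohydrate-fermenting Bacteroidales that lives in the gut and the mouth of mammals. It was followed here by genus and by sequence feature in mice given polyethylene terephthalate (PET) nanoplastics. The members were the features whose deposited lineage names the family, which were 823 of the 8574 features in the table. They made up 10.4% of the 7922 prokaryote features and held 783680 counts, which is 4.59% of the prokaryote counts of the 60 libraries.

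Variable regions V3 and V4 of the bacterial 16S rRNA gene were amplified and read in samples from male mice. PET mice were gavaged for 28 days with 0.5 mg of PET nanoparticles a day in 0.1 ml, and control mice were not exposed. The design text gives 12 mice, 6 per arm, and the labels give 10 groups of 6 libraries: PET and control stool after 1 week and, at day 28, PET and control stool, colon, oral swab and lung. The labels do not say which libraries come from the same mouse, so p-values here measure only the spread between libraries.

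Prevotellaceae in laboratory mice is known chiefly as a fibre-degrading part of the stool community, where lineages without a cultured relative carry placeholder names such as Prevotellaceae UCG-001. Prevotella and Alloprevotella include many species first isolated from the human mouth, among them Prevotella melaninogenica and Alloprevotella tannerae, as well as gut species such as Prevotella copri. Paraprevotella is a gut genus. A 16S feature is a distinct amplicon sequence, so 1 bacterium can give several features if its rRNA gene copies differ, and a share is relative to all prokaryote counts of a library, not a number of cells.

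Library totals ran from 10543 to 1083575 counts, with 10543 to 326834 in lung and 59063 to 280575 in colon. The site labels were checked against summed shares of marker taxa. The mouse mouth genera Muribacter, Streptococcus and Rodentibacter averaged 81.1% of PET and 87.1% of control oral swab counts. The colon mucus genus Helicobacter averaged 66.6% of PET and 63.5% of control colon counts, and the gut anaerobe families averaged 54.1% of PET and 50.5% of control stool counts at day 28. No list dominated lung, where gut anaerobe families averaged 21.1% in PET and 34.6% in control libraries and reagent type genera 11.7% and 6.65%. Per the labels, stool and oral swabs shared 1 DNA kit and lung and colon another, so kit and site cannot be told apart in part of the site comparisons. PCR counts carry no molecular identifiers, so intervals and floors below cover counting error only.

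The family was made of 7 genus labels of very different build. Prevotellaceae UCG-001 had 60 features and 647506 counts, and 96.1% of its counts lay in its 4 largest features. Prevotella had 524 features but 91116 counts, and its largest feature held 17.7% of them. Alloprevotella had 189 features and 31020 counts, Paraprevotella 15 features and 9198 counts, the NK3B31 group 12 features and 1617 counts, and UCG-003 1 feature and 99 counts. A further 22 features were not classified below the family.

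Most features were seen once. Of the 823 features, 737 (89.6%) were detected in 1 library, against 73.8% of all prokaryote features. In UCG-001 such features held 0.423% of the genus' counts, whereas in Prevotella they held 38.2% and in Alloprevotella 40.4%. Only 26 features were found in 6 or more libraries. The classifier's confidence was under 0.9 for 203 features, 58 of them Alloprevotella and most of the others Prevotella.

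Most features were found at 1 site. Lung held 532 of them, of which 470 (88.3%) were found at no other site, against 75.3% of all prokaryote features of lung. Colon held 160 features, of which 68.8% were found at no other site, against 31.6% of all prokaryote features of colon. Oral swabs held 154, with 70.1% at no other site against 44.9% of all. Stool held the fewest, with 62.1% at no other site against 64.9% of all. Of the lung features, 42 (7.89%) were also found in colon, 42 (7.89%) in oral swabs and 31 (5.83%) in stool. Over all prokaryote features of lung these shares were 16.4%, 18.8% and 14.2%. Of the colon features, 34 (21.3%) were also found in stool, against 57.6% of all prokaryote features of colon. The 21 features found at all 4 sites held 613778 of the family's counts, and 12 of them were Prevotella, 4 UCG-001 and 3 NK3B31 group.

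Sites were compared over the 12 day 28 libraries of both arms at each site. The mean share of UCG-001 was highest in stool and that of Prevotella highest in lung. Within the family, Prevotella also led in oral swabs, at 68.3% of PET and 78.7% of control family counts, against 70.6% and 76.6% in lung. UCG-001 averaged 0.0664% ± 0.0979 in lung, 0.562% ± 0.698 in colon, 0.136% ± 0.118 in oral swabs and 5.17% ± 2.29 in stool (SD, n = 12 each). The ranges of colon and stool met, with colon up to 2.05% and stool from 1.91%, while lung and oral swab differed by less than their SD. Prevotella averaged 4.51% ± 4.69 in lung, 0.344% ± 0.413 in colon and 0.523% ± 0.863 in oral swabs, and it was detected in 2 of 12 stool libraries, at a mean of 0.00462%. The spread within lung, colon and oral swab was about as large as the mean or larger, and colon and oral swab differed by less than it. Alloprevotella followed with 1.39% ± 1.84 in lung, 0.219% ± 0.446 in colon, 0.0321% ± 0.0334 in oral swabs and 0.135% ± 0.466 in stool.

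**Figure D1:**
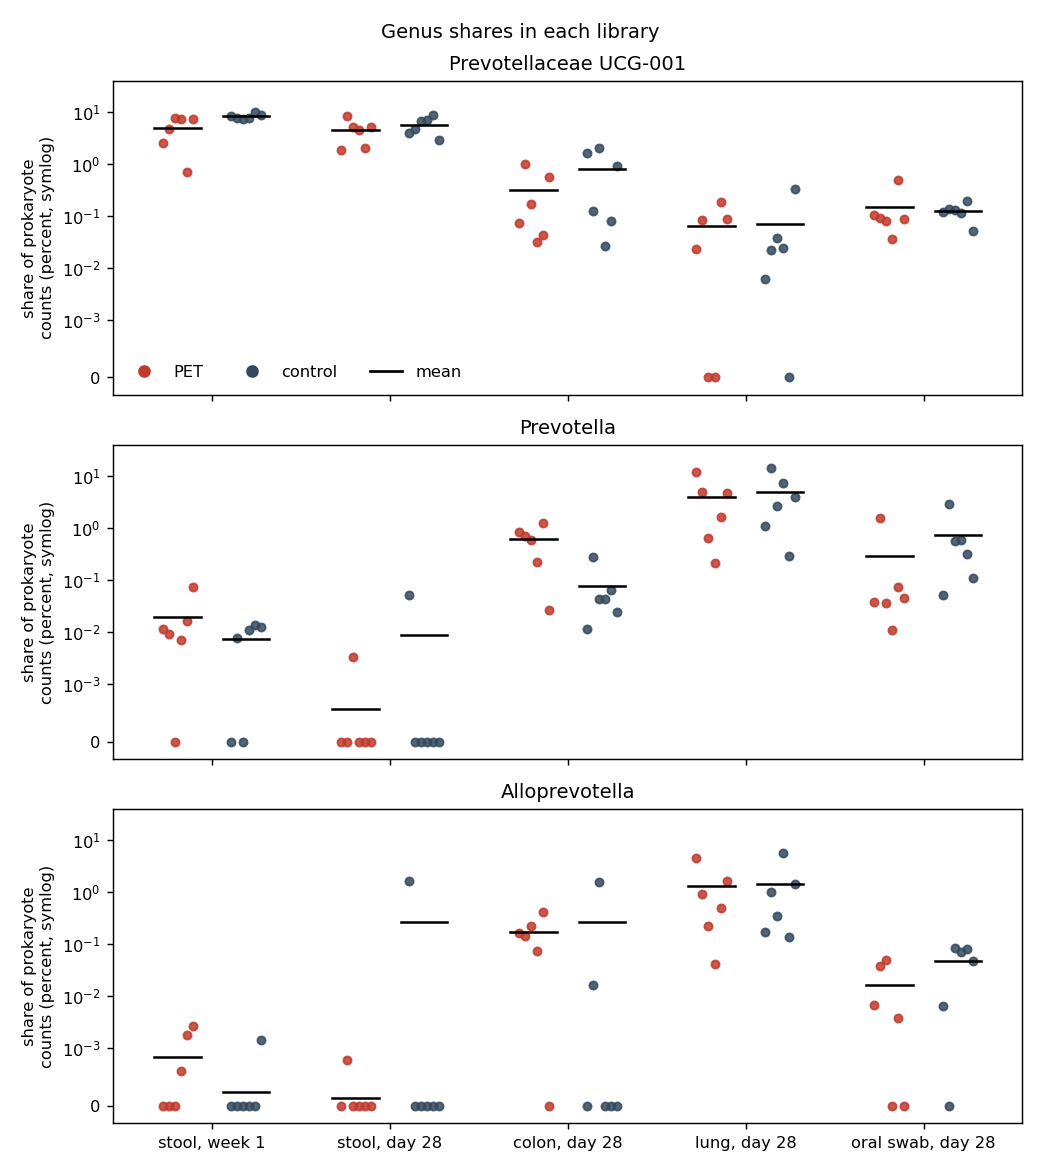
Share of prokaryote counts (percent, symlog axis with 0 shown) of Prevotellaceae UCG-001, Prevotella and Alloprevotella in each library, with PET libraries in red left of control libraries in blue and a bar at the mean of 6. UCG-001 stood highest in stool and Prevotella highest in lung. In colon, 5 of 6 PET libraries lay above 0.2% Prevotella, as did 1 of 6 control libraries.

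The site tests were edgeR quasi-likelihood F tests on all genera of 2 sites, with Benjamini-Hochberg adjustment and a threshold of 0.05. Between lung and stool, 5 of 6 family genera passed, where 83.8% of all genera did. Prevotella was higher in lung (log2 difference 9.78 ± 1.63 SE, adjusted p = 3.18e-06), as was the NK3B31 group (7.62 ± 1.92, adjusted p = 0.000423), and UCG-001 was lower in lung (-7.77 ± 0.99, adjusted p = 2.68e-08). Between oral swab and stool, 3 of 6 passed, where 70.3% of all genera did. Prevotella was higher in oral swabs (10.52 ± 1.65, adjusted p = 1.16e-05) and UCG-001 lower (-1.66 ± 0.34, adjusted p = 0.000235). With plain library totals the UCG-001 difference was -5.24, closer to the ratio of the mean shares. The median of all genera was itself 6.34 between lung and stool and 6.25 between oral swab and stool, so these values are relative to a large common shift.

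Between colon and stool, 1 of 6 family genera passed, where 32% of all genera did. That genus was Prevotella (7.54 ± 2.41, adjusted p = 0.0153), and it passed in PET libraries alone but not in control libraries alone (log2 difference 10.23 in PET and 4.51 in control libraries, the control value with an adjusted p of 0.127). UCG-001 had a log2 difference between colon and stool of -1.37 ± 0.69 (adjusted p = 0.118), which did not pass. It passed with plain library totals (-3.34, adjusted p = 0.000634), TMMwsp, DESeq2, limma, no filter, the stricter filter, confidence 0.9 or more, without the 4 libraries of the other number series and in PET libraries alone, at log2 differences of -5.15 to -1.87. Between lung and colon, 2 of 6 passed, where 41.6% of all genera did: Prevotella (2.23 ± 0.95, adjusted p = 0.0499) and UCG-001 (-5.32 ± 1.17, adjusted p = 0.000434). The Prevotella call was lost with TMMwsp (2.10, adjusted p = 0.0877), limma (adjusted p = 0.275) and PET libraries alone (1.16, adjusted p = 0.528).

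Between lung and oral swab, 2 of 6 passed, where 31.1% of all genera did. Prevotella was not among them. Alloprevotella was higher in lung (2.69 ± 1.04, adjusted p = 0.0458). That call was lost with TMMwsp (adjusted p = 0.0995), with non-bacterial features kept (0.0524), at confidence 0.9 or more (0.102) and in either arm alone, where the log2 difference was 3.32 in PET and 1.84 in control libraries. UCG-001 was lower in lung (-4.45 ± 0.96, adjusted p = 0.000891), a call lost with plain library totals (-1.04, adjusted p = 0.439). Between colon and oral swab, 0 of 6 family genera passed in edgeR, where 16.2% of all genera did. In control libraries alone Prevotella was lower in colon than in oral swabs (-3.50, adjusted p = 0.0361), while in PET libraries alone the difference was 0.55 and did not pass.

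**Figure D2:**
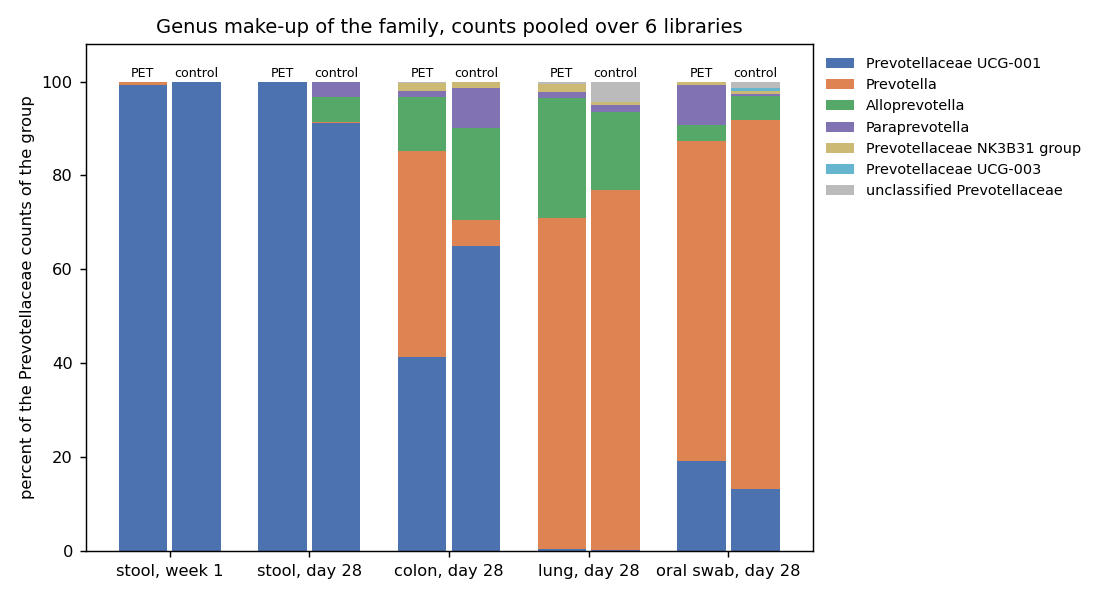
Genus make-up of the family as a percent of its counts pooled over the 6 libraries of each group, with the PET bar left of the control bar at each site and time. Stool bars are mostly UCG-001, lung and oral swab bars mostly Prevotella, and colon holds both, with Prevotella at 43.8% of family counts in PET and 5.53% in control colon. PET swab 2 alone held 6218 of the 6694 Prevotella counts in the PET oral swab bar.

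UCG-001 was most of the family in stool. It held 99.2% of the family's counts in PET and 99.9% in control stool after 1 week, and 99.96% in PET and 91.2% in control stool at day 28. After 1 week its share ran from 0.715% through a median of 6.06% to 7.61% in PET stool, and from 7.43% through 8.24% to 10.04% in control stool. Most PET libraries lay below the whole control range, but the ranges met at their ends. The means were 5.09% ± 2.92 and 8.43% ± 0.934 (SD, n = 6 each), and the log2 difference of -0.95 ± 0.49 did not pass (unadjusted p = 0.0738, adjusted p = 0.572, edgeR).

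At day 28 its share in PET stool ran from 1.91% through 4.88% to 8.35%, and in control stool from 2.97% through 5.82% to 8.89%. The ranges overlapped almost fully. The means were 4.56% ± 2.40 and 5.77% ± 2.22 (SD, n = 6 each), with a log2 difference of -0.26 ± 0.39 (adjusted p = 0.896, edgeR).

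At neither time did a family genus pass in edgeR: 0 of 4 tested after 1 week and 0 of 2 tested at day 28. The share of all genera called was 0% at both times, with 0 family genera under an unadjusted p of 0.05 and 0 called by DESeq2, by limma on centred log ratios or by exact permutation tests. The median log2 difference of the tested family genera was 1.13 after 1 week and -0.28 at day 28, against 0.36 and -0.06 over all genera. Prevotella in stool was low after 1 week, with a mean of 0.0193% in PET and 0.00743% in control libraries. At day 28 it was found in 1 of 6 PET and 1 of 6 control libraries.

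Time was tested within each arm in a fit of the 24 stool libraries. In PET stool UCG-001 averaged 4.56% at day 28 and 5.09% after 1 week, a log2 change of -0.03 ± 0.47 (adjusted p = 0.967, edgeR). In control stool it averaged 5.77% at day 28 and 8.43% after 1 week, a log2 change of -0.95 ± 0.47 (adjusted p = 0.290, edgeR). The difference between the arms' changes was 0.91 ± 0.66 (adjusted p = 0.491). Of 6 family genera tested, 0 passed in PET stool, 0 in control stool and 0 for the difference, where 0% of all genera did in each. In edgeR, 3, 2 and 3 of them had an unadjusted p under 0.05. Other tools called 0, except for Prevotella in PET stool with limma on centred log ratios.

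Prevotella feature 1 was a rare stool member, with a mean share of 0.00877% in PET stool after 1 week. It had 0 counts in PET stool at day 28 and 308 counts in 5 of 6 PET libraries after 1 week. That is at least 75.3-fold lower at day 28 against a floor of 3 counts over the group, and at least 72.2-fold without the library highest in it. The change in PET stool did not pass (adjusted p = 0.208, edgeR). In control stool the feature had 91 counts in 2 of 6 libraries after 1 week and 59 counts in 1 of 6 at day 28.

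The leading UCG-001 features sorted into 2 sets that kept similar proportions across most stool libraries. Features are numbered by their mean share within their genus. Feature 1, the largest member of the family, averaged 3.51% over the 24 stool libraries, feature 2 averaged 0.835%, feature 4 averaged 0.706%, feature 3 averaged 0.695% and feature 5 averaged 0.205%. Feature 5 was found in 23 of the 23 stool libraries with at least 100 counts of feature 3. Its counts there were 27.5% to 36.6% of those of feature 3, with a median of 30.6%.

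Features 2 and 4 kept company with feature 1. Of 19 stool libraries with at least 100 counts of feature 1, feature 2 was present in 17, at 21.2% to 29.8% of its counts with a median of 27.8%. Feature 4 was present in 15 of the 19, at a median of 31% of the counts of feature 1. In 13 of those 15 libraries the ratio was between 29.6% and 32.4%. The other two were control libraries after 1 week: library 2 at 0.551% and library 3 at 12.8%. These proportions describe counts that share a library and its depth.

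The second set replaced the first as the leading one in 5 stool libraries. Feature 1 was at 0.00934% and 0.011% in PET libraries 1 and 5 after 1 week, at 0.00490% and 0.00415% in PET libraries 1 and 5 at day 28, and at 0 counts in control library 6 at day 28. Feature 3 was then the largest UCG-001 feature, at 1.99% and 0.536% in the first pair, 1.48% and 1.58% in the second pair and 2.30% in the control library. Feature 2 had 0 counts in all 5. Over both times the first set was near absent in 4 of 12 PET and 1 of 12 control stool libraries, a count given without a test. With 6 mice per arm these libraries are not independent animals, and a mouse can be counted at both times.

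**Figure D3:**
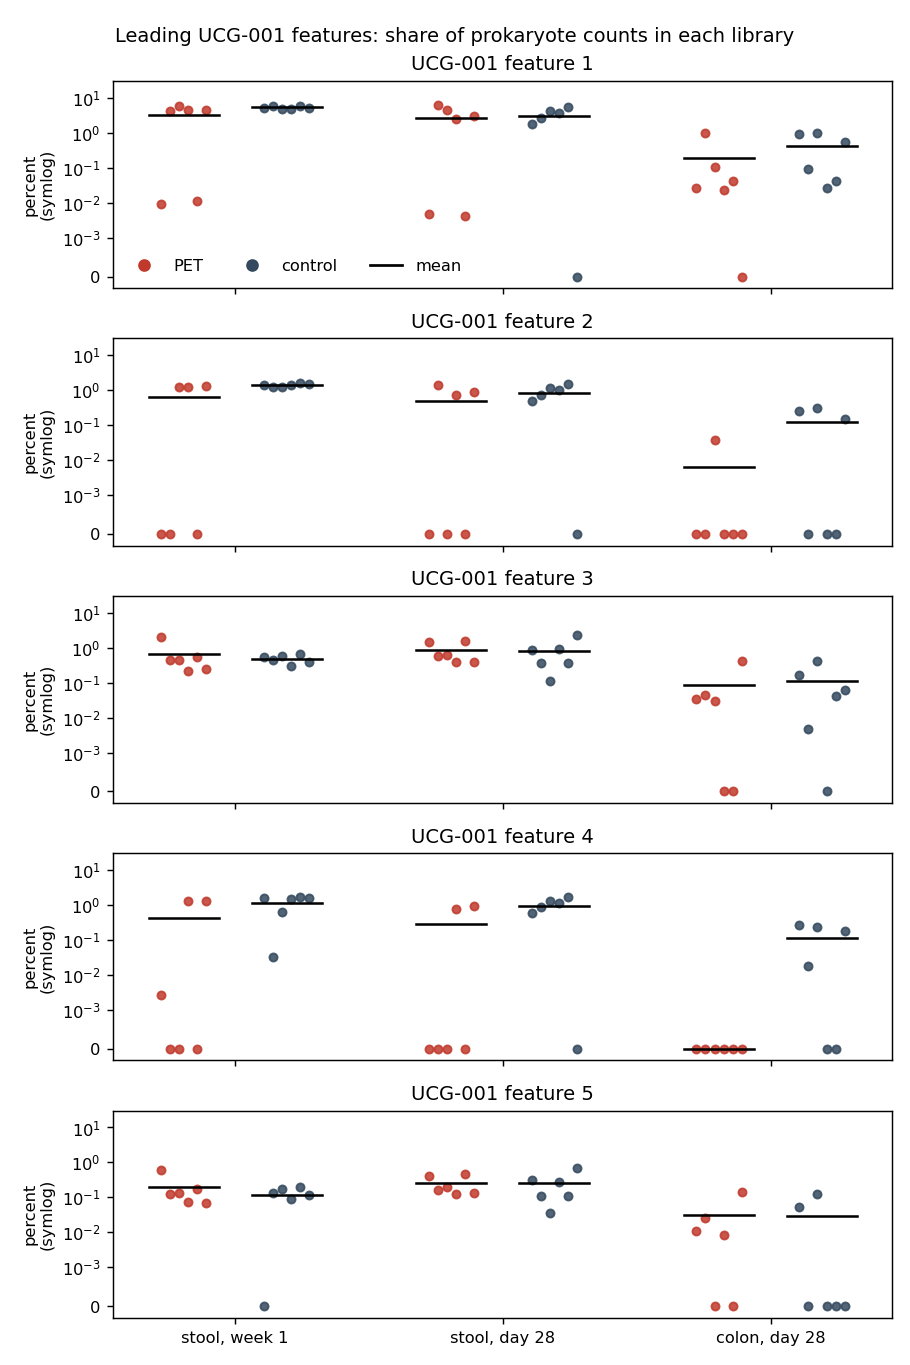
Share of prokaryote counts (percent, symlog axis with 0 shown) of the 5 leading UCG-001 features in each stool and colon library, with PET libraries in red left of control libraries in blue and a bar at the mean of 6. Features 1, 2 and 4 drop to or near 0 in several PET stool libraries where features 3 and 5 remain. Feature 4 is at 0 in all 6 PET colon libraries.

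Feature 4 was the least common of the set in PET libraries. After 1 week it was present in 3 of 6 PET stool libraries, 1 of them at 0.00269%, and in 6 of 6 control libraries. The means were 0.439% ± 0.679 and 1.18% ± 0.690 (SD, n = 6 each). At day 28 it was present in 2 of 6 PET and 5 of 6 control stool libraries, with means of 0.280% ± 0.436 and 0.930% ± 0.587. Neither difference passed (log2 difference -1.20 after 1 week and -1.65 at day 28, each with an adjusted p over 0.99 in edgeR).

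Feature 1 was found without feature 4 in 7 stool libraries. Those of them with at least 100 counts of feature 1 were PET libraries 2 and 3 at each time. In library 2 after 1 week and library 3 at day 28, feature 2 was at 0 counts too. In library 3 after 1 week and library 2 at day 28, feature 2 stood at 21.6% and 21.8% of feature 1, close to the 21.2% of control library 2 after 1 week, where feature 4 was nearly absent. The library numbers only name libraries and do not pair the times.

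Feature 2 was found without feature 4 in 2 of the 24 stool libraries, feature 4 without feature 2 in 1, and both in 15. Feature 2 was found in 3 of 6 PET and 6 of 6 control stool libraries after 1 week, and in 3 of 6 PET and 5 of 6 control libraries at day 28. Feature 3 was found in all 24. Among UCG-001 features, 0 passed in stool at either time, where 0% of all features did. Over the family 0 of 7 features tested passed after 1 week and 0 of 5 at day 28, with 0 and 0 under an unadjusted p of 0.05 in edgeR and 0 called by DESeq2, limma or exact permutation tests.

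In oral swabs feature 4 was present in every library, at 0.0255% ± 0.0290 in PET and 0.0212% ± 0.00997 in control swabs (SD, n = 6 each). Feature 1 was also in all 12 swabs, at 0.0933% ± 0.0984 in PET and 0.0692% ± 0.0300 in control swabs. In lung feature 4 had 0 counts in all 12 libraries and feature 1 was present in 3 of 6 PET and 5 of 6 control libraries. UCG-001 as a genus averaged 0.0637% in PET and 0.0691% in control lung.

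In colon, UCG-001 ran from 0.0316% through a median of 0.124% to 1.02% in PET and from 0.0260% through 0.525% to 2.05% in control libraries. The ranges overlapped over most of their length. The means were 0.317% ± 0.398 and 0.807% ± 0.877 (SD, n = 6 each), and the log2 difference of -1.43 ± 1.19 did not pass (adjusted p = 0.613, edgeR).

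UCG-001 feature 4 was the member that passed in colon. It had 0 counts in all 6 PET colon libraries. In control colon libraries 1, 2, 3 and 6 it was at 0.260%, 0.0183%, 0.232% and 0.180%, and in libraries 4 and 5 at 0. Of the 14 family features tested in colon it was the 1 called, where 2.35% of all features were. It was at least 329-fold lower in PET colon against a floor of 3 counts over the group, and at least 223-fold without control library 1 (fitted log2 difference -10.37 ± 3.15, adjusted p = 0.0460, edgeR). The call was lost in 11 of 12 fits that left out 1 library, where the adjusted p ran from 0.0489 to 0.132 and the log2 difference from -10.72 to -9.93. It was also lost with plain library totals (adjusted p = 0.0804), with limma, with no low count filter and in the exact permutation test (adjusted p = 0.873).

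Feature 1 had at least 100 counts in 2 PET colon libraries, and both lacked feature 4. In PET library 2 it had 1266 counts with 0 of feature 2, and in PET library 3 it had 37 counts of feature 2 beside feature 1. In the 4 control colon libraries with at least 100 counts of feature 1, feature 4 stood at 19.8% to 33.4% of it. The mean share of feature 1 was 0.192% ± 0.374 in PET and 0.427% ± 0.435 in control colon (SD, n = 6 each), a log2 difference of -0.97 ± 1.91 (adjusted p = 0.991, edgeR).

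Prevotella had the largest difference in mean share between the colon arms. It stood at 0.860%, 0.707%, 0.586%, 0.226%, 1.25% and 0.0262% in PET colon libraries 1 to 6, and at 0.0116%, 0.281%, 0.0428%, 0.0439%, 0.0642% and 0.0243% in control libraries 1 to 6. PET libraries other than library 6 lay above every control library except library 2, which lay within the PET range. The means were 0.610% ± 0.442 and 0.0780% ± 0.101 (SD, n = 6 each). The log2 difference of 2.51 ± 1.26 had an unadjusted p of 0.0495 and an adjusted p of 0.268, so it did not pass, and leaving out each library in turn gave 2.22 to 2.89. With features of confidence 0.9 or more it passed (3.80 ± 1.42, adjusted p = 0.0428). PET library 5, the highest in Prevotella, was the shallowest colon library at 55824 prokaryote counts, and PET library 6 was the deepest at 278584. PET libraries 1 to 4 had 72902 to 133103 counts and control libraries 127532 to 241653. The part of depth in the Prevotella difference was not tested.

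As a background, 15.6% of all genera were called in colon, which is 22 genera, 19 of them higher in PET. Of the 6 family genera tested 0 were called in edgeR, with 1 under an unadjusted p of 0.05 and 0 called by DESeq2, limma or exact permutation tests. Their median log2 difference was 0.48, against 0.57 over all genera. Of the genera of 6 other Bacteroidales families, 10 were tested, 2 were called higher in PET and 0 lower.

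The PET colon Prevotella was spread over many rare features. PET colon libraries held 4 to 42 Prevotella features each, with a median of 17.5. Control colon libraries held 1 to 10 each, with a median of 3.5, and 12 together. The arms shared 7 of these features, which are 6.42% of the PET features with 16.1% of their counts, and 58.3% of the control features with 92% of their counts. Over all prokaryote features of colon, the shared ones were 39.2% of the PET features with 91.8% of their counts, and 60.8% of the control features with 95.2% of their counts. Of the PET features, 85 (78.0%) were found in 1 library of the 60 and held 54.2% of the counts. Over the whole series, 90.8% of Prevotella features and 73.8% of all prokaryote features were found in 1 library. In lung 20 of the PET features were found, in oral swabs 16 and in stool 14.

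Species labels of Prevotella in PET colon were mixed. The highest in mean share were Prevotella melaninogenica, Massiliprevotella massiliensis, which stands under Prevotella in the deposited lineage, and Prevotella copri. Features labelled Prevotella melaninogenica, a pigmented anaerobe of the human mouth, were found in 4 of 6 PET colon libraries at a mean of 0.0810% ± 0.0942 and in 0 of 6 control libraries. Those labelled Massiliprevotella massiliensis were found in 2 of 6 PET libraries at 0.0676% ± 0.159 and in 0 of 6 control libraries. Those labelled Prevotella nanceiensis were found in 4 of 6 PET and 0 of 6 control libraries, and those labelled Prevotella pallens and Prevotella jejuni in 3 of 6 PET and 0 of 6 control libraries each. Prevotella copri, a human gut species, was found in 2 of 6 PET libraries at 0.0490% ± 0.0954 and in 3 of 6 control libraries at 0.0289% ± 0.0440. Species names are the classifier's labels, given without a test and chosen after their values were seen.

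Genera of the mouth and skin moved with Prevotella in colon. The summed share of 8 other oral genera (Neisseria, Fusobacterium, Porphyromonas, Selenomonas, Leptotrichia, Veillonella, Gemella and Capnocytophaga) was 0.611% ± 0.594 in PET and 0.00935% ± 0.0150 in control colon (SD, n = 6 each). The 3 skin genera Cutibacterium, Corynebacterium and Staphylococcus together averaged 0.136% in PET and 0.00112% in control colon, and the mouse mouth genera 0.229% and 0.0878%. PET libraries 1, 2 and 3 were the highest in the 8 oral genera, at 1.31%, 1.18% and 0.938%, while PET library 5, the highest in Prevotella, had 0.102%. The part of these taxa in the Prevotella difference was not tested.

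**Figure D4:**
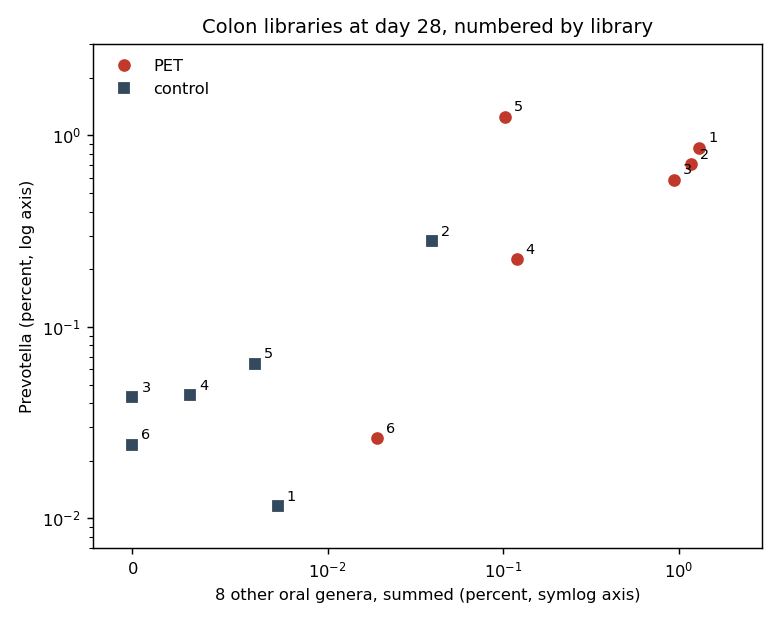
Prevotella (percent of prokaryote counts, log axis) against the summed share of 8 other oral genera (percent, symlog axis with 0 shown) in each day 28 colon library, with PET libraries as red circles and control libraries as blue squares, numbered by library. Most PET libraries lie high on both axes and most control libraries low on both. PET library 6, at 0.0262% Prevotella, lies among the control libraries.

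Alloprevotella in colon was found in 5 of 6 PET libraries, from 0 through a median of 0.155% to 0.421%, and in 2 of 6 control libraries, where library 2 had 0.0166% and library 3 had 1.58% (95% Wilson interval 1.52% to 1.64%). The means of 0.172% ± 0.145 and 0.265% ± 0.642 (SD, n = 6 each) thus turned on control library 3. The log2 difference was -0.06 ± 1.44 (adjusted p = 0.990, edgeR). Without control library 3 it was 6.54 and passed (adjusted p = 0.0172), and with features of confidence 0.9 or more it was 6.15 ± 1.90 (adjusted p = 0.0124).

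Paraprevotella in colon was found at 0.170% in PET library 5 and 0 counts in the other PET libraries, and reached 0.668% in control library 3. The means were 0.0284% and 0.118%, a log2 difference of -2.39 ± 1.81 (adjusted p = 0.611, edgeR). Without PET library 5 the value was -10.12 and passed (adjusted p = 0.00363). Without control library 3 it was 1.75 (adjusted p = 0.862), and with features of confidence 0.9 or more 1.31 (adjusted p = 0.836).

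Control colon library 3 shared its Alloprevotella and Paraprevotella with a stool library. Day 28 control stool library 1 held Alloprevotella at 1.61% (95% Wilson interval 1.58% to 1.65%) and Paraprevotella at 0.949%, while the other 5 control stool libraries had 0 counts of both. Both libraries carried the same 2 Alloprevotella features, labelled as from a gut metagenome, with 2686 counts in colon and 9613 in stool. They also carried the same Paraprevotella feature, with 1139 and 5649 counts. In the other 58 libraries those features had 37 and 12 counts. No label says whether the pair came from 1 mouse.

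The same stool library set 2 time values. The log2 change of control stool at day 28 against week 1 was 9.32 ± 2.85 for Alloprevotella (adjusted p = 0.157) and 9.37 ± 3.15 for Paraprevotella (adjusted p = 0.198). Without that library the values were -3.49 and -2.67, and Prevotella then passed.

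In lung, Prevotella was the main genus of the family in both arms. It ran from 0.212% through a median of 3.15% to 11.96% in PET and from 0.291% through 3.33% to 14.7% in control libraries. The ranges overlapped almost fully and spanned more than 50-fold within each arm. The means were 4.0% ± 4.38 and 5.01% ± 5.35 (SD, n = 6 each), a log2 difference of -0.61 ± 1.17 (adjusted p = 0.997, edgeR). Alloprevotella averaged 1.32% ± 1.69 in PET and 1.47% ± 2.14 in control lung, a log2 difference of -0.20 ± 1.27 (adjusted p = 0.997).

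The smaller genera of lung did not differ by more than their spread either. Paraprevotella averaged 0.0866% ± 0.0609 in PET and 0.112% ± 0.0784 in control libraries, and the NK3B31 group 0.129% ± 0.0944 and 0.240% ± 0.365. Unclassified members averaged 0.0592% in PET and 0.212% in control libraries, with 1.12% in control library 2. Of 6 family genera 0 passed in edgeR, where 0% of all genera did, with 0 under an unadjusted p of 0.05 and 0 called by DESeq2, limma or exact permutation tests. Of 32 family features tested in lung 0 passed, where 0% of all features did, with 5 under an unadjusted p of 0.05 in edgeR and 0 called by the other tools.

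Lung Prevotella was spread over many features when each arm was pooled, but not in every library. PET libraries held as few as 5, with a median of 19.5, and PET library 1 held the most. Control libraries held 17 to 81, with a median of 32.5. In control library 2, features 1, 2 and 3 held 8737, 10282 and 5638 of its 32395 Prevotella counts. PET lung held 176 Prevotella features and control lung 207, of which 23 were shared (13.1% of the PET and 11.1% of the control features). The shared features held 19.9% of the PET and 60.9% of the control Prevotella counts. These pooled shares rest largely on 1 library per arm. Control library 2 held 32395 of the 46098 control Prevotella counts, and its features 1, 2 and 3 were all shared with PET lung. PET library 1 held 14717 of the 17409 PET Prevotella counts. Over all prokaryote features of lung, 31.5% of the PET and 24.4% of the control features were shared, with 69.8% and 73.4% of the counts. The largest Prevotella feature differed between all 6 control libraries. Features labelled Prevotella melaninogenica averaged 0.821% ± 0.785 in PET and 0.278% ± 0.380 in control lung, found in 4 of 6 and 5 of 6 libraries. Features labelled Alloprevotella tannerae, also a mouth species, averaged 0.201% ± 0.279 and 0.162% ± 0.229. Those of the gut species Prevotella copri averaged 0.169% ± 0.126 in PET and 0.0799% ± 0.130 in control lung, found in 5 of 6 and 3 of 6 libraries. Those labelled Prevotella histicola were found in 0 of 6 PET and 3 of 6 control libraries. These labels were given without a test and chosen after their values were seen. The 8 other oral genera together averaged 7.56% ± 9.82 in PET and 6.79% ± 11 in control lung, and their part in the Prevotella share was not tested.

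Control lung library 2 held the 3 leading Prevotella features at high levels: feature 1 at 3.97%, feature 2 at 4.67% and feature 3 at 2.56%. Features are ranked by mean share over all libraries, this one included, so their rank rests partly on it. The means of feature 1 were 0.0496% in PET and 0.744% in control lung, and those of feature 2 were 0.0632% and 0.780%. The log2 differences of -4.72 and -5.49 did not pass (adjusted p = 0.296 and 0.228, edgeR). Without that library the value was 0.05 for feature 1 and 5.09 for feature 2.

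In oral swabs the family was a minor part, 0.500% ± 0.709 in PET and 0.955% ± 1.05 in control swabs (SD, n = 6 each). Prevotella ran from 0.0108% through a median of 0.0416% to 1.56% in PET and from 0.0515% through 0.446% to 2.87% in control swabs. PET swabs other than library 2 reached at most 0.0749%, which overlapped the low end of the control range. The log2 difference of -2.59 ± 0.98 had an unadjusted p of 0.0195 and did not pass (adjusted p = 0.497, edgeR). Leaving out each library in turn moved it between -3.66 and -0.71.

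High oral swabs were each led by their own feature. In PET swab 2 Prevotella feature 7 held 57.1% of the Prevotella counts, and in control swab 2 feature 1 held 63.3%. The arms had 33 and 71 Prevotella features, with 9 shared (27.3% of the PET and 12.7% of the control features). The shared features held 58.6% of the PET and 66.9% of the control Prevotella counts. Over all prokaryote features of oral swabs, 47.8% of the PET and 43.6% of the control features were shared, with 96.6% and 97.8% of the counts. PET swab 2 also held 20.3% gut anaerobe families, against a PET median of 1.78% and a control median of 2.62%, and Paraprevotella at 0.200%.

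UCG-001 in oral swabs ran from 0.0354% through 0.0907% to 0.486% in PET and from 0.0521% through 0.125% to 0.192% in control swabs, a log2 difference of -0.19 ± 0.47 (adjusted p = 0.970, edgeR). Unclassified members had 0 counts in PET swabs and 278 counts in 3 of 6 control swabs. They were at least 81.9-fold lower in PET swabs against a floor of 3 counts over the group, and at least 34.2-fold without control library 4 (unadjusted p = 0.00999, adjusted p = 0.497, edgeR). UCG-003 was found at 99 counts in 2 control swabs and nowhere else.

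Of 6 family genera tested in oral swabs 0 passed in edgeR, where 0% of all genera did, with 2 under an unadjusted p of 0.05. DESeq2, limma and exact permutation tests called 0. Of 14 features 0 passed, where 0% of all features did, with 4 under an unadjusted p of 0.05. DESeq2 called 1, Prevotella feature 6, which had 0 counts in PET swabs and 512 counts in 4 of 6 control swabs, at least 151-fold lower in PET swabs (adjusted p = 0.405 in edgeR). The median log2 difference of the family genera was -1.32, against -0.18 over all genera.

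The number of family features per library did not always follow the Prevotella share. Colon PET library 5, the highest colon library in Prevotella, held 20 features, against 52 in PET library 2. PET stool library 6 after 1 week held 67 features, 41 of them UCG-001 and 19 Prevotella. Colon libraries held 28.3 ± 19 features in PET and 9.67 ± 5.89 in control mice (SD, n = 6 each), with 6 through a median of 26 to 52 in PET and 4 through 7.5 to 20 in control libraries. At the depth of the shallowest library, 10083 prokaryote counts, the expected numbers were 23.3 ± 14.4 and 7.49 ± 4.16. Lung libraries held 50 ± 62.7 in PET and 60.7 ± 42.3 in control mice, and oral swabs 14 ± 8.81 and 25.7 ± 15.2. Within each site the arms' ranges overlapped, and no test was made.

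**Figure D5:**
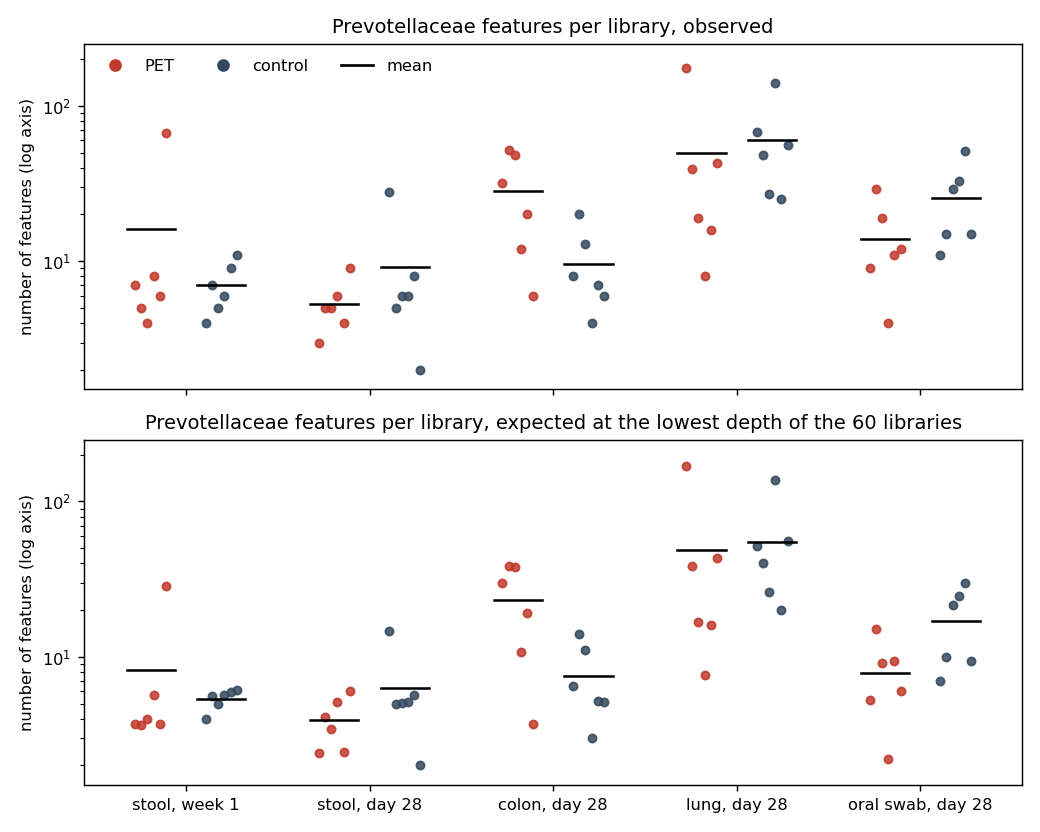
Number of Prevotellaceae features per library (log axis), observed in the upper panel and the number expected at 10083 prokaryote counts in the lower one, with PET libraries in red left of control libraries in blue and a bar at the mean of 6. Lung libraries reach 175 in PET and 140 in control mice, colon PET libraries lie mostly above colon control libraries, and most stool libraries lie under 10.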

How the data were processed

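The deposited table held whole-number read counts per sequence feature and library, with no normalization, per the file headers built from a biom file. A deposited taxonomy table gave 7955 features a lineage, with the classifier's confidence as a fraction, 0.700 at its lowest among the members. Per the submitters' processing notes, cutadapt, Bowtie2 and the build GRCm39 were used. Which denoiser, classifier and database served is not given in the sources used here. Reads were paired and 300 bases long, per the labels.

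Features with no taxonomy line (619) and non-prokaryote features were left out, which kept 99.3% of counts. Shares are percent of a library's prokaryote counts. Counts were summed over the whole table into 578 genus labels, those without a genus going under their lowest named rank. Each exposure comparison (6 PET against 6 control libraries), the 24 stool libraries together and each pair of day 28 sites were fitted with edgeR 4.0.16 (TMM, quasi-likelihood F test) in R 4.3.3, over taxa with a total of at least 10 counts and a count above 0 in 3 libraries. P-values were adjusted by Benjamini-Hochberg over all taxa tested, threshold 0.05. Features were tested in the same way. The fits were tested on simulated data. They recovered changes at a fixed moderate spread but few at the spread of the real colon libraries, so power in colon was low.

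Alternatives were TMMwsp, library totals, DESeq2 1.42.0, limma 3.58.1 on centred log ratios (pseudocount 0.5), exact permutation tests over 924 arrangements, no and a stricter count filter, non-bacterial features kept, confidence at least 0.9, leaving out 4 libraries from another number series of the labels, each library in turn, and, between sites, each arm alone. A group at 0 was set to a floor of 3 counts over the group. Named were genera with a mean share of at least 0.1% in a group, the 8 features with the highest mean share, the leading features of each site and those past the threshold. Other features are named where a count or a library singled them out. The members, lists and rules were chosen with earlier results of these data known. No 2 libraries held identical counts.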

Additional observations from a re-analysis of the deposited data

Results flagged for a closer look

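In groups of 6 libraries, 74 sets of values were screened for 1 library far from the other 5 (Dixon's test at its 95% critical value), and 26 stood out. The test's chance rate of about 1 in 20 holds for independent, normally distributed values. Shares here were often skewed, some taxa were absent from most libraries of a group, and features are counted again in their genus and family. The number that stood out can therefore not be set against that rate, and the values below only describe libraries. The family share, genus shares, named features and feature number were screened, and causes were not tested.

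In stool after 1 week, PET library 1 stood apart in UCG-001 feature 3 (1.99%) and feature 5 (0.611%), the set that leads where feature 1 is near absent. PET library 6, the deepest of the 60, held 67 family features, against 4 to 8 in the other PET libraries.

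In stool at day 28, control library 1 stood apart in Alloprevotella (1.61%), Paraprevotella (0.949%) and family features (28). Control library 6, with no feature 1, stood apart in UCG-001 feature 3 (2.30%).

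In colon, PET library 2 held UCG-001 feature 1 at 0.951%. Control library 3 stood apart in the family share (4.35%), Alloprevotella (1.58%) and Paraprevotella (0.668%), the last 2 with the features of control stool library 1.

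In lung, PET library 1 stood apart in Alloprevotella (4.57%) and family features (175). Control library 4 did so in the same measures (5.72% and 140). Control library 2 stood apart in unclassified members (1.12%) and in Prevotella features 1 (3.97%), 2 (4.67%) and 3 (2.56%). The rank of these 3 features rests partly on that library.

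In oral swabs, PET library 2 stood apart in the family share (1.89%) and Prevotella (1.56%), and PET library 5 in UCG-001 (0.486%). Control library 2 did so in the family share (3.02%), Prevotella (2.87%) and Prevotella features 1 (1.82%) and 2 (0.739%).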

How the results depend on the processing

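No paired analysis was possible because the labels give no number or animal shared between groups. In the exposure and time comparisons every tested family genus kept its side of the threshold, apart from the colon and stool changes named here, and causes were not tested. Depth limits rare members: a library of 10083 counts can miss features under 0.03%, and most features were seen in 1 library.

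Counts of family genera called moved as follows. For PET against control colon 2 were called with confidence at least 0.9, and leaving out each library gave 0 to 1 (Alloprevotella without control library 3, Paraprevotella without PET library 5). For day 28 against week 1, limma called 1 in PET stool, and leaving out each library gave 0 to 1 in control stool (Prevotella without day 28 control library 1). For colon against stool 3 were called with TMMwsp, library totals, DESeq2, the stricter filter and without the 4 libraries of the other number series, 4 with limma, no filter and PET libraries alone, 5 with confidence at least 0.9 and 0 with control libraries alone. For lung against stool DESeq2 called 3, and for oral swab against stool 5 were called with confidence at least 0.9 and with PET libraries alone. For lung against colon 1 was called with TMMwsp, limma and PET libraries alone and 4 with library totals. For lung against oral swab 1 was called with TMMwsp, non-bacterial features kept, confidence at least 0.9 and control libraries alone, and 4 with library totals. For colon against oral swab control libraries alone gave 1.

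Counts of features called moved to 3 in day 28 stool and 1 in control stool over time with no filter, and to 1 in oral swab with DESeq2. In colon the 1 call became 0 with library totals, limma, no filter and exact permutation tests, and 0 to 1 on leaving out each library. It remained with TMMwsp, DESeq2, the stricter filter, non-bacterial features kept and confidence at least 0.9.

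Signs of log2 differences turned as follows. In colon Alloprevotella was 3.23 with limma, 0.13 with no filter, 6.15 with confidence at least 0.9 and 4.43 in the exact permutation test, and Paraprevotella was 1.31 with confidence at least 0.9. In lung the NK3B31 group was -0.47 with TMMwsp, -0.89 with library totals, -0.018 with DESeq2, -0.25 with the stricter filter and -0.091 with confidence at least 0.9. Unclassified members in lung were 1.10 with limma and 1.45 in the exact permutation test, where Paraprevotella was 0.33 and Prevotella feature 2 was 0.50. UCG-001 in oral swab was 0.25 with library totals, 0.12 with DESeq2 and 0.10 with confidence at least 0.9, and over time in PET stool 0.10 with DESeq2, 0.57 with limma and 0.024 in the exact permutation test. Between lung and oral swab Prevotella was -0.042 in control libraries alone, and between colon and oral swab 0.55 in PET libraries alone, with Alloprevotella at -2.11 with confidence at least 0.9. In day 28 stool UCG-001 feature 3 was 0.039 with library totals, 0.0069 with DESeq2, 0.11 with limma, 0.56 without the 4 libraries and 0.38 in the exact permutation test. Feature 5 was 0.069, 0.41 and 0.34 under the last 3. Feature 4 in control stool over time was 0.0053 without the 4 libraries.

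Leaving out each library turned some signs too. In lung the ranges were -1.95 to 0.58 for Prevotella, -1.86 to 1.17 for Alloprevotella, -0.76 to 0.021 for Paraprevotella, -0.52 to 0.68 for the NK3B31 group, -3.36 to 0.76 for unclassified members, -5.06 to 0.053 for Prevotella feature 1 and -6.28 to 5.09 for feature 2. In colon they were -0.50 to 6.54 for Alloprevotella, -10.12 to 1.75 for Paraprevotella and -1.82 to 0.34 for UCG-001 feature 3. In day 28 stool they were -0.43 to 0.21, -0.35 to 0.56 and -0.39 to 0.43 for UCG-001 features 1, 3 and 5, and after 1 week -0.40 to 0.57 and -0.26 to 0.82 for features 3 and 5. In oral swab the range was -0.20 to 0.12 for UCG-001. Over time in PET stool they were -0.44 to 0.12 for UCG-001, -0.066 to 1.04 for feature 3, -1.70 to 0.18 for feature 4 and -0.066 to 1.04 for feature 5, and in control stool -3.49 to 12.23 for Alloprevotella, -2.67 to 11.47 for Paraprevotella and -0.53 to 0.043 for feature 4. The exposure-by-time interaction in stool ran from -14.54 to 1.16 for Alloprevotella.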
